A study of Homo sapiens with 3 samples.

Results

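The transcripts described here belong to 10 genes of amino acid synthesis and transsulfuration in HEK293T cells, a human embryonic kidney line that carries a viral large T antigen (the sample labels give the line without the T). They were taken by RefSeq identifier from the lists of RPKM values (reads scaled by transcript length and sequencing depth): CTH (NM_001902), CBS (NM_000071), PHGDH (NM_006623), PSAT1 (NM_058179), PSPH (NM_004577), SHMT2 (NM_005412), MTHFD2 (NM_006636), ASNS (NM_001673), SLC7A11 (NM_014331) and WARS (NM_004184, the gene now called WARS1). Of these 10 members, 9 were listed in all 3 samples and 1, SHMT2, in none, out of 25443 transcripts listed in at least 1 sample. The 9 listed members also had a mean of at least 1 RPKM over the samples, as did 15573 of all transcripts. PolyA RNA was sequenced from cells in normal medium (control), from cells kept for 48 h with 1 mM DMSO, the solvent, and from cells kept for 48 h with 1 µM BDE-209, a fully brominated diphenyl ether flame retardant, dissolved in the same amount of DMSO. The BDE-209 sample therefore carried both agents. Each condition was 1 sample, so no difference has a replicate check, no test between conditions is possible, and no p-value is given. The members were chosen by gene, with their RPKM values in these same 3 samples known, so every ratio of a member is a description.

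Cells make serine from a glycolytic intermediate in consecutive steps by PHGDH, PSAT1 and PSPH, and pass its carbon through SHMT2 and MTHFD2 in mitochondria into folate-bound carbon units for nucleotide synthesis. CBS joins serine to homocysteine, and CTH cleaves the product to cysteine, which is the transsulfuration route. SLC7A11 brings in cystine from the medium as the other source of cysteine, ASNS makes asparagine, and WARS charges the tryptophan tRNA. Many of these genes are known targets of the transcription factor ATF4, which binds a C/EBP-ATF response element when cells lack amino acids.

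The windows upstream of CTH, the member with the largest ratio between samples, and of ASNS, whose promoter is the textbook case of that element, are shown because the members differed in the size of their differences and the element is what they are commonly said to share. Both are the 250 bases before the gene start from RefSeq (GRCh38.p14, a later build than the hg19 build of the RPKM lists), CTH at chr1:70411018-70411267 on the plus strand and ASNS at chr7:97872409-97872658 on the minus strand. Capitals mark a match to the element, TGATGNAAN.
CTH: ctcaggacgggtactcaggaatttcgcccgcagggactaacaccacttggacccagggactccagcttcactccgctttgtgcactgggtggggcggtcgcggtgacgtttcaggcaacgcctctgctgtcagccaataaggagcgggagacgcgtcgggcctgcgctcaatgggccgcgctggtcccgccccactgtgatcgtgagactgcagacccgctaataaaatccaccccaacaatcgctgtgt
ASNS: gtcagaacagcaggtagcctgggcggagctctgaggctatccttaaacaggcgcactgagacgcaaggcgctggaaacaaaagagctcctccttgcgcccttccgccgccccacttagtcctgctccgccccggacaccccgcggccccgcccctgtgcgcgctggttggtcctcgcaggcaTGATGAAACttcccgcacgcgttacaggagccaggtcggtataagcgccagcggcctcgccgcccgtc
The element was searched on both strands in 300 bases around each start (250 before and 50 after). It was found in 1 of the 11 windows of the 7 member genes with an entry (CTH, CBS, PHGDH, PSAT1, MTHFD2, ASNS and WARS), the ASNS window above, where it began 68 bases before the start. Among all genes in the table, 4.45% had a window with a match (1215 of 27305), and 3.61% of all windows did. A match is only a run of letters, and its absence says nothing about the factor. PSPH, SHMT2 and SLC7A11 have no entry in the table used.

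The number of reads behind a value was recovered from the steps of the RPKM values. The totals to which the values are scaled were 4843624 reads in the control, 4782044 in DMSO and 4676793 in BDE-209, and on a transcript of 1 kb, 1 read was worth 0.206, 0.209 and 0.214 RPKM. Read counts given below are the smallest whole numbers that the values of a transcript allow. A range in parentheses after a fold is the 95% Clopper-Pearson interval of the ratio of reads at these totals. It covers counting error between the pair of libraries only, not the spread between cultures. As a check of the label, 7 of 8 genes often seen in this line were listed (summed 485 RPKM in the control, 482 in DMSO and 439 in BDE-209), while PAX2 was not listed. Of these, VIM was at 299 RPKM in the control, 296 in DMSO and 261 in BDE-209 and KRT18 at 48.1 RPKM in the control, 43.6 in DMSO and 40.7 in BDE-209, both wholly lower in BDE-209 than in the control by the interval above, while 0 of the other 5 (NEFL, NEFM, ENO2, KRT8 and CDH2) had an interval off equal levels in any comparison. Markers of liver summed to at most 0.325 RPKM, of blood to 1.70 and of fibroblasts to 5.80 in any sample, and TTR, SERPINA1, PTPRC, CD3E and DCN were not listed. The part of the lower VIM and KRT18 values in the BDE-209 sample in the results below was not tested.

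CTH, the enzyme that releases cysteine from cystathionine (chromosome 1, 70876901 to 70905534, plus strand, GRCh37, the same assembly as hg19), was at 3.38 RPKM in the control, 6.94 in DMSO and 5.70 in BDE-209, from 35, 71 and 57 reads. Both samples with DMSO lay above the control. CBS, which makes cystathionine in the step before (chromosome 21, 44473301 to 44497053, minus strand), was at 19.2 RPKM in the control, 18.6 in DMSO and 16.5 in BDE-209, from 243, 232 and 201 reads. No pair of its values differed by more than counting error.

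PHGDH, which opens serine synthesis (chromosome 1, 120191034 to 120286841, plus strand), had the highest level of the members, with 206 RPKM in the control, 231 in DMSO and 216 in BDE-209 (2020, 2236 and 2042 reads). DMSO was the highest sample, and BDE-209 lay nearer to the control. PSAT1, the aminotransferase of the middle step (chromosome 9, 80912041 to 80945009, plus strand), was at 124 RPKM in the control, 158 in DMSO and 158 in BDE-209 (1329, 1677 and 1645 reads). The samples with DMSO were almost equal to each other, and both above the control. PSPH, the phosphatase that yields serine (chromosome 7, 56078744 to 56119297, minus strand), was at 16.4 RPKM in the control, 17.9 in DMSO and 16.7 in BDE-209 (170, 183 and 167 reads), and its values lay close together.

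MTHFD2, a mitochondrial enzyme of the folate cycle (chromosome 2, 74413299 to 74444692, plus strand), was at 109 RPKM in the control, 135 in DMSO and 134 in BDE-209, from at least 584, 713 and 690 reads. As for PSAT1, both samples with DMSO lay above the control and close to each other. Exons of SLC4A5, on the opposite strand, overlap MTHFD2 in the GENCODE annotation, and whether reads were counted by strand is not stated. SHMT2, which splits serine in mitochondria (chromosome 12, 57623356 to 57628718, plus strand), was in none of the lists under the identifier NM_005412. Other SHMT2 transcripts were listed in the control alone, NM_001166357 with 2 reads and NR_029415 with 1. A missing line is not evidence that the gene was silent, since some genes that all cells use also had very low values: LDHA, for lactate dehydrogenase, was at 0.533, 0.900 and 0.368 RPKM and YWHAZ at 3.35, 2.51 and 2.99 in the control, DMSO and BDE-209. Others of this kind were high, with ACTB at 1525, 1476 and 1385 RPKM and GAPDH at 2124, 2150 and 2064. No ratio is given for SHMT2.

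SLC7A11, the cystine carrier (chromosome 4, 139085251 to 139163503, minus strand), was at 11.7 RPKM in the control, 16.5 in DMSO and 16.6 in BDE-209 (548, 759 and 750 reads). Its control value was the lowest, and those with DMSO differed little from each other. The antisense gene SLC7A11-AS1 overlaps its exons, and, as for MTHFD2, whether reads were counted by strand is not stated. ASNS, asparagine synthetase (chromosome 7, 97480989 to 97501854, minus strand), was at 1.19 RPKM in the control, 1.10 in DMSO and 1.23 in BDE-209, from only 12, 11 and 12 reads. No order of the samples can be read from so few reads. A long noncoding RNA gene on the same strand overlaps exons of ASNS. WARS, the tryptophanyl-tRNA synthetase (chromosome 14, 100800127 to 100843142, minus strand), was at 4.44 RPKM in the control, 3.26 in DMSO and 2.52 in BDE-209 (62, 45 and 34 reads). Its BDE-209 value was the lowest, and only that against the control differed by more than counting error. A long noncoding RNA gene on the opposite strand overlaps exons of WARS.

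**Figure D1:**
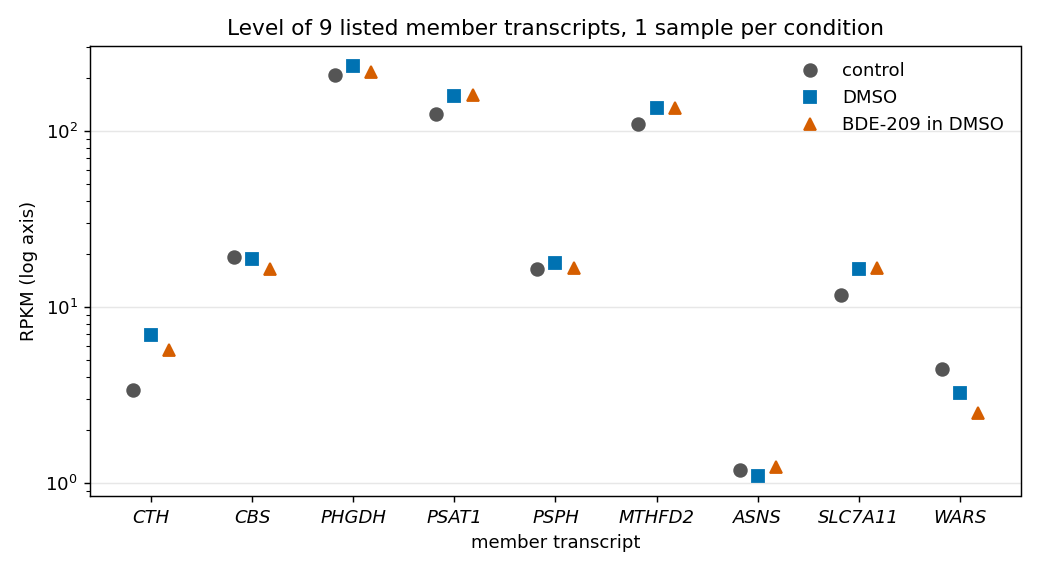
RPKM (log axis) of the 9 listed members in the control (circles), DMSO (squares) and BDE-209 in DMSO (triangles), 1 sample each and no error bars. PHGDH, PSAT1 and MTHFD2 lie above 100 RPKM, CBS, PSPH and SLC7A11 between 11.7 and 19.2, and CTH, WARS and ASNS under 7.

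Between DMSO and the control, the comparison that asks how cells with the solvent alone differ from untreated cells, CTH was 2.05-fold (1.35 to 3.17) higher in DMSO, SLC7A11 1.40-fold (1.26 to 1.57), PSAT1 1.28-fold (1.19 to 1.37), MTHFD2 1.24-fold (1.11 to 1.38) and PHGDH 1.12-fold (1.06 to 1.19). These 5 of 9 members had intervals wholly above equal levels (called wholly higher from here on). The same was true of 4.77% of the 15570 transcripts with a mean of at least 1 RPKM and recovered reads, and of 6.50% of the 8059 with a mean of at least 10 RPKM, where more reads narrow the intervals. No member had an interval wholly below equal levels (background 3.78%, or 5.15% from 10 RPKM upward). PSPH was 1.09-fold (0.880 to 1.35) of the control, CBS 0.967-fold (0.804 to 1.16), ASNS 0.928-fold (0.371 to 2.30) and WARS 0.735-fold (0.489 to 1.10), and these intervals include equal levels. In RNA of whole cultures, fewer cells with a transcript and less of it per cell cannot be told apart.

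The study calls a difference at a fold of 2 together with a limit on its NOISeq probability, which was not applied here. CTH was the single member past that fold, as a ratio of the RPKM values themselves. With 0.5 RPKM added to each value, which damps ratios of low transcripts, it was 1.92-fold higher and 0 of 9 members reached 2-fold (background 0.469% higher and 0.565% lower). On that scale 1 member, CTH, was at least 1.5-fold higher (background 2.07%) and 3, CTH, SLC7A11 and PSAT1, at least 25% higher (background 7.46%), while 1, WARS, was at least 20% lower (background 7.96%) and 0 were 1.5-fold lower (background 2.34%). The median log2 ratio of (RPKM + 0.5) over the 9 members was 0.16, ranging from -0.39 for WARS to 0.94 for CTH. Over all 15573 transcripts the median was 0.01, and the 5th and the 95th percentile were -0.42 and 0.40. SLC7A11 and CTH lay above that range, at 0.47 and 0.94.

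Set against the control, from which it differs by both agents, the BDE-209 sample was higher in 4 members. CTH was 1.69-fold (1.09 to 2.65) higher, SLC7A11 1.42-fold (1.27 to 1.59), PSAT1 1.28-fold (1.19 to 1.38) and MTHFD2 1.22-fold (1.09 to 1.37). WARS was lower, at 0.568-fold (0.362 to 0.877) of the control. Thus 4 of 9 members had intervals wholly higher (background 4.73%, or 6.45% from 10 RPKM upward) and 1 wholly lower (4.30%, or 5.99%). PHGDH, at 1.05-fold (0.984 to 1.11), PSPH, at 1.02-fold (0.817 to 1.27), CBS, at 0.857-fold (0.707 to 1.04), and ASNS, at 1.04-fold (0.426 to 2.52), had intervals that include equal levels. With 0.5 RPKM added, 0 of 9 reached 2-fold in either direction (background 0.430% higher and 0.507% lower), 1 was at least 1.5-fold higher (1.89%), 1 at least 1.5-fold lower (2.41%), 3 at least 25% higher (7.26%) and 1 at least 20% lower (7.92%). The median log2 ratio was 0.07, from -0.71 for WARS to 0.68 for CTH, against 0.00 over all transcripts. With the mean over all listed transcripts of each gene in place of the member, the median of the members was 0.29. The 5th and the 95th percentile over all transcripts were -0.41 and 0.39. CTH and SLC7A11 lay above that range, at 0.68 and 0.49, and WARS below it. This comparison and the one before share the control sample, so like values in both are partly the same measurement.

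The BDE-209 and DMSO samples differed in added agents by BDE-209 alone, but were also separate cultures and libraries. Between them, 1 of 9 members had an interval off equal levels. PSAT1 was 1.00-fold (0.936 to 1.07), SLC7A11 1.01-fold (0.912 to 1.12) and MTHFD2 0.990-fold (0.890 to 1.10) of the DMSO level. That member was PHGDH, lower at 0.934-fold (0.879 to 0.992) (background 3.05% lower, or 3.77% from 10 RPKM upward). No member was wholly higher (background 2.79%, or 3.56% from 10 RPKM upward). CTH was 0.821-fold (0.569 to 1.18), CBS 0.886-fold (0.730 to 1.07), PSPH 0.933-fold (0.752 to 1.16), WARS 0.773-fold (0.480 to 1.23) and ASNS 1.12-fold (0.451 to 2.79). Differences of these sizes were not detectable at this depth, and the intervals do not show that the levels were alike. With 0.5 RPKM added, 0 of 9 members were past 2-fold (background 0.591% higher and 0.514% lower), past 1.5-fold (2.09% and 2.16%), or 25% higher or 20% lower (6.93% and 7.19%). The median log2 ratio was -0.10, from -0.32 to 0.11, and over all transcripts 0.00. The 5th and the 95th percentile over all transcripts were -0.40 and 0.39, and no member lay outside them.

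**Figure D2:**
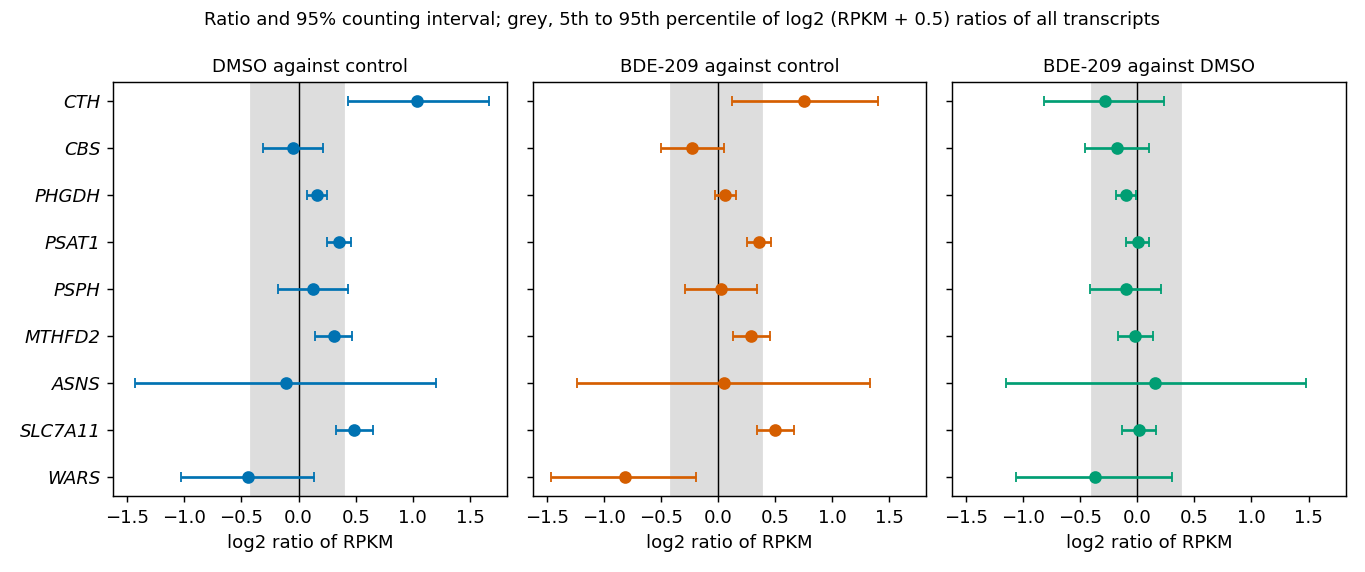
Log2 ratio of RPKM for the 9 listed members in each comparison, with bars for the 95% counting interval; the grey band runs from the 5th to the 95th percentile of log2 ratios of (RPKM + 0.5) over 15573 transcripts. CTH, SLC7A11, PSAT1 and MTHFD2 lie to the right of 0 in both comparisons with the control, WARS to the left, and ASNS has the widest bars.

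Other transcripts of the member genes were listed for 6 of the genes, and each was counted separately. In CTH, NM_153742 had 15, 40 and 41 reads, with ratios to the control of 2.70-fold (1.46 to 5.26) in DMSO and 2.83-fold (1.53 to 5.51) in BDE-209. The other, NM_001190463, had 20, 31 and 16 reads. Its ratio to the control was 1.57-fold (0.867 to 2.91) in DMSO and 0.829-fold (0.401 to 1.68) in BDE-209, and that of BDE-209 to DMSO 0.528-fold (0.270 to 0.995). All 3 CTH transcripts were thus highest in a sample with DMSO, but in BDE-209 only NM_001190463 lay under the control, by less than its counting error.

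The second PSAT1 transcript, NM_021154, had 1212, 1519 and 1484 reads and ratios of 1.27-fold (1.18 to 1.37) and 1.27-fold (1.17 to 1.37) to the control in DMSO and BDE-209. These were nearly the values of the member. CBS NM_001178008 had 219, 212 and 184 reads, again close to the member, and NM_001178009 had 5, 7 and 1 reads. In WARS, NM_173701 had 63, 40 and 32 reads, with ratios of 0.643-fold (0.422 to 0.971) and 0.526-fold (0.333 to 0.817), so that here the DMSO sample too was wholly lower than the control. NM_213645 and NM_213646 of WARS had at most 7 reads in a sample. The other 4 ASNS transcripts had between 1 and 12 reads, and no ASNS interval excluded equal levels in any comparison. How reads shared by transcripts of 1 gene were counted is not given in the sources used here, so these counts may hold the same reads and were not summed.

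**Figure D3:**
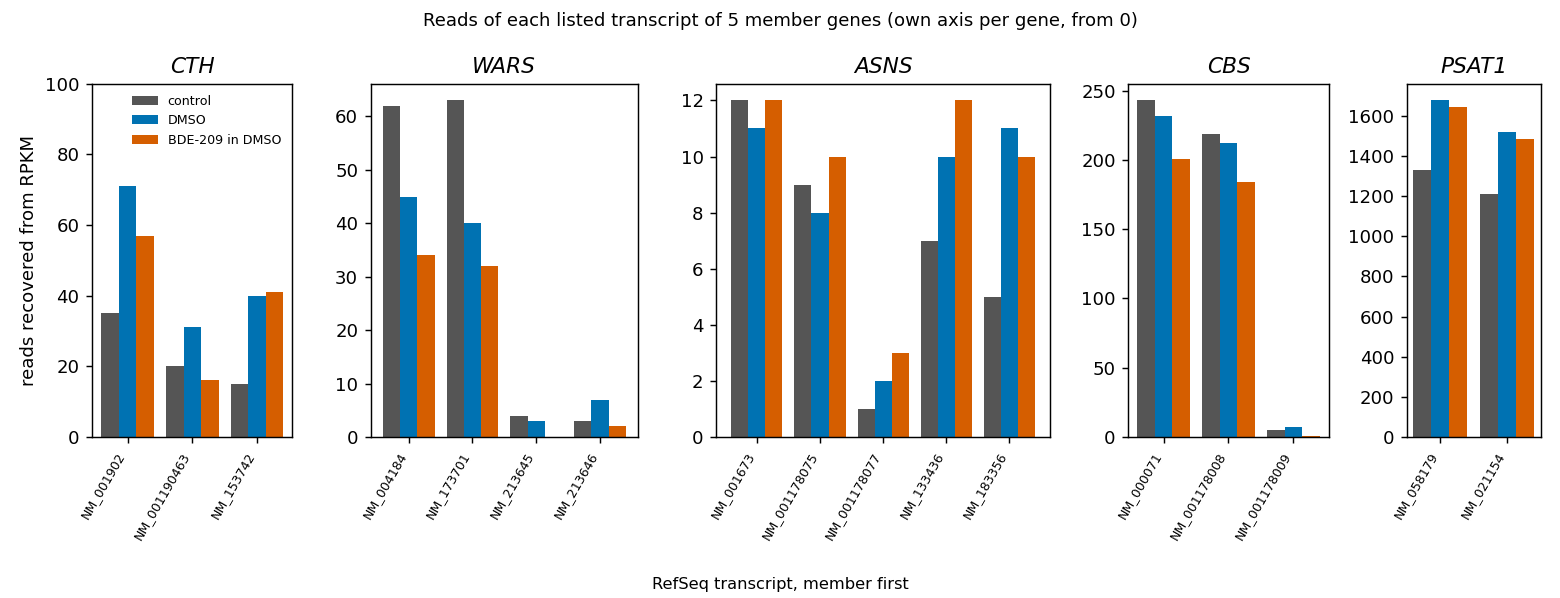
Reads recovered for each listed transcript of CTH, WARS, ASNS, CBS and PSAT1 (bars from 0, each gene on its own axis, the member first) in the control, DMSO and BDE-209 in DMSO. CTH NM_001902 has 35, 71 and 57 reads, and NM_004184 and NM_173701 of WARS have 34 and 32 reads in BDE-209 against 62 and 63 in the control.

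Levels differed with the number of transcripts listed for a gene. The members with 1 listed transcript of the gene (PHGDH, MTHFD2, SLC7A11 and PSPH) and PSAT1 with 2 were at 11.7 RPKM or more, while CTH with 3, WARS with 4 and ASNS with 5 were at 6.94 RPKM or less. CBS, with 3, did not follow this, at 16.5 to 19.2 RPKM. Nor did SHMT2, whose 2 listed transcripts were at 0.175 RPKM or less in the control and absent from the samples with DMSO. LDHA, outside the members and also with 2, was at 0.900 RPKM or less. Over all genes with a symbol and a coding transcript, the highest transcript had a median of 6.83 RPKM where 1 transcript was listed (10016 genes) and 7.50 where 2 were (3574 genes), but 1.23 where 3 were (1064 genes) and 0.790 where 4 or more were (453 genes). The part of this in the low values of CTH, WARS and ASNS was not tested.

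Of the other genes of these pathways, 132 had a mean of at least 1 RPKM, each represented by its highest transcript. In DMSO against the control, 21 of them had an interval wholly higher (background 4.77%, or 6.50% from 10 RPKM upward) and 5 wholly lower (3.78%, or 5.15%). In BDE-209 against the control the counts were 22 (4.73%, or 6.45%) and 5 (4.30%, or 5.99%). In BDE-209 against DMSO they were 3 (background 2.79%, or 3.56% from 10 RPKM upward) and 3 (3.05%, or 3.77%), so neither count was above its share over all transcripts. The shares of all transcripts given above for these intervals are the background of these counts. Their median log2 ratios were 0.05, 0.03 and 0.00 (with 0.5 RPKM added). Genes named below beyond the highest and the lowest ratio of a list were chosen after their values were seen. No other gene was at least 1.5-fold different with an interval off equal levels in DMSO against the control or in BDE-209 against DMSO.

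In serine, glycine and folate metabolism, 3 of 18 other genes were wholly higher in DMSO than in the control and 1 lower (background 4.77% and 3.78%). The highest was ALDH1L2, a mitochondrial enzyme that oxidizes formyl-folate, at 18.3 RPKM in the control, 24.4 in DMSO and 23.4 in BDE-209, or 1.33-fold (1.21 to 1.48), and it was 1.28-fold (1.16 to 1.42) in BDE-209. SHMT1, the cytosolic counterpart of SHMT2, was 1.18-fold (1.01 to 1.38) and 1.13-fold (0.965 to 1.33). The lowest was GCSH, of the glycine cleavage system, with 60, 40 and 57 reads, or 0.675-fold (0.441 to 1.02) in DMSO. In BDE-209 3 were wholly higher and 0 lower (background 4.73% and 4.30%), with GART, of purine synthesis, lowest at 0.756-fold (0.551 to 1.03).

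In transsulfuration, the methionine cycle and cysteine use, 0 of 16 other genes were wholly higher in either comparison with the control (background 4.77% and 4.73%). MAT2A, which makes S-adenosylmethionine, was the single lower one, at 0.932-fold (0.871 to 0.998) in DMSO (background 3.78%). CHAC1, which degrades glutathione, had the highest ratio in both, 1.32-fold (0.839 to 2.10) and 1.47-fold (0.939 to 2.31), and the lowest were 2 enzymes of sulfide oxidation, ETHE1 in DMSO at 0.574-fold (0.297 to 1.07) and TST in BDE-209 at 0.732-fold (0.505 to 1.05). The glutathione-making subunits GCLC and GCLM were at 1.15-fold (0.993 to 1.33) and 0.878-fold (0.679 to 1.13) in DMSO.

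In the synthesis of asparagine, glutamine, proline, aspartate and alanine, 1 of 13 other genes was wholly higher in DMSO (background 4.77%), GPT2, the mitochondrial alanine transaminase, at 1.21-fold (1.04 to 1.41). In BDE-209 GOT2, the mitochondrial aspartate transaminase, was the single one wholly lower (background 4.30%), at 0.924-fold (0.865 to 0.987). There 0 were wholly higher (4.73%), and GPT2 was 1.16-fold (0.991 to 1.35).

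Among amino acid transporters, 5 of 20 other genes were wholly higher in DMSO than in the control (background 4.77%) and 5 in BDE-209 (4.73%), with 0 lower in either (3.78% and 4.30%). The highest in DMSO was SLC7A1, the carrier of cationic amino acids, at 55.8 RPKM in the control, 68.8 in DMSO and 69.5 in BDE-209, or 1.23-fold (1.16 to 1.31) and in BDE-209 1.247-fold (1.17 to 1.32). SLC43A1, a carrier of large neutral amino acids, was highest in BDE-209 at 1.36-fold (1.02 to 1.81). The lowest were SLC38A3 in DMSO, at 0.810-fold (0.560 to 1.17), and SLC7A8 in BDE-209, at 0.825-fold (0.609 to 1.11). The glutamine carriers SLC38A1 and SLC38A2 were 1.15-fold (1.09 to 1.21) and 1.18-fold (1.10 to 1.27) in DMSO. SLC38A1 was 1.08-fold (1.03 to 1.14) in BDE-209 over DMSO, the single transporter wholly higher there (background 2.79%). SLC3A2, the partner chain of SLC7A11, was the highest in BDE-209 over DMSO, but with only 20, 16 and 23 reads its ratio of 1.47-fold (0.743 to 2.98) includes equal levels.

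Of the cytosolic tRNA synthetases and their cofactors, 9 of 20 other genes were wholly higher in DMSO (background 4.77%, or 6.50% from 10 RPKM upward) and 1 lower (3.78%, or 5.15%). The ratio of WARS was below 1, but the interval of the member (0.489 to 1.10) includes equal levels, while that of NM_173701 (0.422 to 0.971) does not. The highest ratio was that of SARS1, for serine, at 1.17-fold (0.972 to 1.40), and the lowest that of RARS1, for arginine, at 0.874-fold (0.800 to 0.955). In BDE-209 6 were wholly higher and 1 lower (background 4.73% and 4.30%), with the cofactor EEF1E1 highest at 1.17-fold (0.925 to 1.49) and FARSA, for phenylalanine, lowest at 0.891-fold (0.804 to 0.988). GARS1, for glycine, was 1.15-fold (1.09 to 1.22) and 1.10-fold (1.04 to 1.17). AARS1 and NARS1 were the 2 wholly lower in BDE-209 than in DMSO (background 3.05%), at 0.928-fold (0.863 to 0.997) and 0.908-fold (0.832 to 0.991). Of the 17 mitochondrial synthetases, 0 were wholly off equal levels in DMSO (background 4.77% higher and 3.78% lower). There VARS2, for valine, was lowest at 0.691-fold (0.333 to 1.39). In BDE-209 2 were wholly higher (background 4.73%), with PARS2, for proline, highest at 1.37-fold (1.02 to 1.84) and FARS2 lowest at a log2 ratio of -0.34.

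Regulators of the amino acid response, listed because several members are known ATF4 targets, were wholly higher for 3 of 17 genes in DMSO (background 4.77%) and for 5 in BDE-209 (4.73%), with 0 lower in either (3.78% and 4.30%). ATF4 itself was at 749 RPKM in the control, 848 in DMSO and 843 in BDE-209, or 1.13-fold (1.09 to 1.18) in DMSO and 1.13-fold (1.08 to 1.17) in BDE-209. The highest ratio in DMSO was that of ATF3, at 1.46-fold (0.772 to 2.83) from 18, 26 and 17 reads, and in BDE-209 that of CHAC1. EIF2AK3 was lowest in DMSO, at 0.913-fold (0.713 to 1.17). PPP1R15A, which restores translation after stress, was lowest in BDE-209, at 0.801-fold (0.618 to 1.04) of the control and 0.688-fold (0.535 to 0.882) of DMSO. SESN2, a sensor of leucine, was among the 2 wholly higher in BDE-209 than in DMSO (background 2.79%), at 1.13-fold (1.02 to 1.251).

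In BDE-209 against DMSO, 3 of the 132 other genes were wholly higher (background 2.79%) and 3 wholly lower (3.05%), not above these shares, and many of the rest had wide intervals. The log2 ratios (with 0.5 RPKM added) ran from -0.19 for TYMS to 0.50 for GCSH in serine, glycine and folate metabolism. They ran from -0.47 for SQOR to 0.47 for ETHE1 in transsulfuration and cysteine use, and from -0.23 for ASS1 to 0.06 for GLUL in the asparagine and glutamine list. Transporters ran from -0.29 for SLC7A8 to 0.43 for SLC3A2. The genes with an interval off equal levels in this comparison were SLC38A1, AARS1, NARS1, PPP1R15A, SESN2 and, the highest regulator, EIF2AK3, at 1.27-fold (1.00 to 1.62). Mitochondrial synthetases ran from -0.27 for FARS2 to 0.21 for MARS2.

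**Figure D4:**
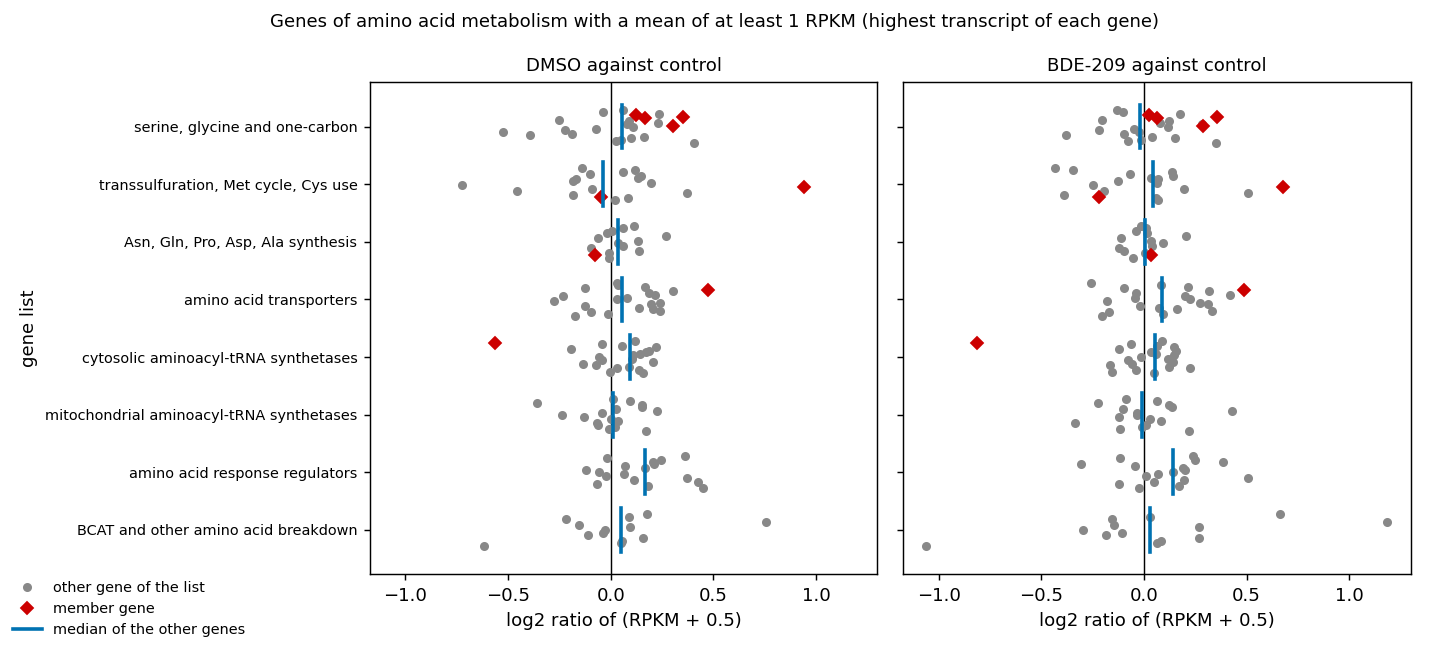
Log2 ratio of (RPKM + 0.5) in DMSO against the control (left) and BDE-209 against the control (right) for genes with a mean of at least 1 RPKM in each list of amino acid metabolism; diamonds are member genes by their highest transcript (NM_173701 for WARS), circles other genes, and bars the median of the other genes. CTH and SLC7A11 lie to the right of, and WARS to the left of, the other genes of their lists in DMSO.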

How the data were processed

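PolyA RNA of 3 samples, 1 for each condition, was read from 1 end for 49 bases. The authors aligned them to hg19 with SOAPaligner, allowing 2 mismatches, dropped reads with more than 1 place in the genome, and deposited an RPKM value for each RefSeq transcript, in lists that hold only values above 0. How reads shared by isoforms were counted is not given in the sources used here. Conditions were taken from the labels; the label of the control also mentions BDE209, but the treatment text describes its medium as free of both agents.

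From there, lists were joined by identifier, with absent transcripts at 0, in Python 3.11.15 with numpy 2.4.6, pandas 2.3.3 and scipy 1.17.1. The RefSeq table paired 24434 of 25443 identifiers with symbols. Total reads were found by scanning values under 0.06 RPKM for whole transcript lengths, with a cosine score of 0.910 in the control, 0.873 in DMSO and 0.898 in BDE-209 (1 is perfect) against at most 0.124 at other totals, and reads as the lowest set of whole numbers matching the 3 values at a length between 49 and 30000 bases. They were recovered for 25438 transcripts and are lower bounds, so intervals can be too wide. The steps were tested on simulated data. The study's NOISeq probability was not used, because it simulates replicates. Its fold of 2 was kept, on the log2 scale after adding 0.5 RPKM, which understates changes of low transcripts; folds with intervals had nothing added. The background is all transcripts with a mean of at least 1 RPKM.

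Members, lists and tests were chosen with earlier results of these data known. By rule, all members were named, and of each list the genes at least 1.5-fold different with an interval off equal levels or, without any, the highest and the lowest ratio, some of which are not reported here. Alternatives were other pseudocounts, scalings, filters and folds, and the mean over all transcripts of a gene. A count for SHMT2 at 0 and the background from 10 RPKM were added after seeing the data. Positions are from GENCODE 44 on GRCh37.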

Additional observations from a re-analysis of the deposited data

How the results depend on the processing

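With 1 sample for each condition, no sample could be left out. No paired analysis was possible because each condition has a single sample. Under no pseudocount, pseudocounts of 0.1 and 1 RPKM, equal RPKM totals, equal totals of coding transcripts, median-of-ratios size factors, and SHMT2 counted at 0, the median log2 ratio of the members ranged from 0.14 to 0.18 in DMSO against the control, from 0.05 to 0.09 in BDE-209 against the control and from -0.10 to -0.06 in BDE-209 against DMSO. The mean over all listed transcripts of a gene gave 0.18, 0.29 and -0.10, so the value for BDE-209 against the control depends on which transcripts are taken. In that comparison the middle value passed from PHGDH (0.07) to MTHFD2 (0.29), as ASNS moved from 0.04 to above both. The ASNS transcripts had between 1 and 12 reads in a sample, so this shift rests on few reads. The scalings differed by too little, and the ratio without a pseudocount is the centre of the interval, so for single members these alternatives say nothing of stability.

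In DMSO against the control, 0 members at least 2-fold higher became 1 without a pseudocount (CTH), 1 at a fold of 1.5 and 3 at 25% higher, and 0 lower became 1 at 20% lower. In BDE-209 against the control, 0 higher became 1 at a fold of 1.5 and 3 at 25% higher, and 0 lower became 1 at a fold of 1.5 and 1 at 20% lower. The share of all transcripts at least 2-fold different was 1.03%, 0.938% and 1.10% in the 3 comparisons. It was 0.0868% in DMSO against the control, 0.062% in BDE-209 against the control and 0.0372% in BDE-209 against DMSO from 10 RPKM upward. Without a filter it was 1.45% and 1.68% in the last 2. Depth limits ASNS (11 or 12 reads), CTH and WARS most.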

Other observations

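Genes of amino acid breakdown and polyamine synthesis, a list not described above, held the highest and the lowest ratio among all the other genes in BDE-209 against the control. ALDH4A1, a mitochondrial enzyme of proline breakdown, had 37, 21 and 13 reads in the control, DMSO and BDE-209, a ratio to the control of 0.575-fold (0.320 to 1.01) in DMSO and 0.364-fold (0.177 to 0.700) in BDE-209. SDSL, a relative of serine dehydratase, went the other way with 4, 9 and 13 reads, at 3.37-fold (1.04 to 14.2) in BDE-209, and rests on very few reads. Of the 13 genes of this list with a mean of at least 1 RPKM, 0 were wholly higher and 2 wholly lower in DMSO than in the control (background 4.77% and 3.78%), and 1 and 3 in BDE-209 (4.73% and 4.30%). ODC1 and SMS, which make polyamines and were named after their values were seen, were the 2 wholly lower in DMSO, at 0.899-fold (0.840 to 0.962) and 0.860-fold (0.771 to 0.958). In BDE-209 they were at 0.902-fold (0.843 to 0.966) and 0.896-fold (0.804 to 0.998). In BDE-209 against DMSO, 0 of the 13 were off equal levels (background 2.79% higher and 3.05% lower). The highest was TAT (log2 ratio 0.48 with 0.5 RPKM added) and the lowest ALDH4A1 (-0.44).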
